A study of Mus musculus with 2 samples.

Results

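Areg, Ereg, Hbegf, Vegfa, Osm, Igf1 and Pdgfb encode secreted factors that act on epithelium, vessels and stroma, and they were followed in immune cells sorted from B16F10 mouse melanomas. The set was chosen by gene name, not by level: 3 ligands of the EGF receptor family, and 1 gene each for VEGF-A, oncostatin M, IGF-1 and PDGF-B. They are 7 of the 55450 genes in the count matrices, and all 7 had unique molecular identifiers (UMIs, each standing for 1 captured transcript molecule) in both libraries. The KO library came from Lyz2-Cre-Kcnj2f/f mice, in which Cre recombinase under the Lyz2 promoter, active in macrophages, monocytes and neutrophils, acts on a floxed Kcnj2 gene. The WT library came from Kcnj2f/f mice, which carry the same floxed alleles without Cre. Kcnj2 encodes the inward-rectifier potassium channel Kir2.1, and the stated question was its effect on the tumour microenvironment.

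In each genotype, subcutaneous B16F10 tumours were taken on day 10, tumours of 3 mice were pooled, and CD45+ cells were sorted and loaded on the 10x Genomics 3′ platform as 1 library. Sex and age of the mice are not given in the labels used here. With 1 library per genotype there is no replicate check on any KO against WT difference, so intervals below are exact 95% intervals for counting error alone and no p-value is given. A pool also hides the spread between its mice.

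Amphiregulin, epiregulin and heparin-binding EGF-like growth factor are made as membrane-bound precursors, are released by shedding proteases and activate EGF receptor family kinases. Amphiregulin from regulatory T cells and type 2 lymphoid cells is known for its part in tissue repair. VEGF-A drives the growth of vessels and is a textbook target of hypoxia-inducible factors. Oncostatin M, a cytokine of the interleukin-6 family made by myeloid cells, acts on stromal cells through its own receptor and gp130. IGF-1 is a survival and growth factor made by some tissue macrophages, and PDGF-B recruits pericytes and fibroblasts.

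About 6000 to 8000 cells per library were aimed for, per the labels. The KO library held 6356 barcodes and 57047535 UMIs, and the WT library held 9677 barcodes and 55219440 UMIs. After filters, 5687 KO cells with a median of 8021 UMIs and 8936 WT cells with a median of 4398.5 UMIs remained. Among all deposited barcodes, 63 sequences occurred in both libraries, and of these 63 were kept in KO and 61 in WT. Leaving them out kept 77 of 78 log2 ratios within their counting interval; the exception was Vegfa in melanoma-like cells, at -0.16 without them. Classes were built here by clustering and named "X-like" from markers; 440 KO cells (7.74%) and 1690 WT cells (18.9%) stayed unnamed. Markers of other lineages differed between the libraries, and ratios without the cells that hold them are given below. In mononuclear phagocyte-like cells the 8 T cell markers, all detected in both libraries, summed to 37.9 CPM (counts scaled to a common total of UMIs) in KO and 240 CPM in WT. The 8 B cell markers, also all detected, summed to 20.1 CPM in KO and 166 CPM in WT.

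Kcnj2 itself had 94 UMIs (7.57 CPM) in KO and 124 UMIs (18.6 CPM) in WT mononuclear phagocyte-like cells, a log2 ratio of -1.30 (interval -1.70 to -0.90). In the macrophage-like class alone it had 17.6 CPM in KO and 22.1 CPM in WT (-0.32, interval -0.97 to 0.33). Reads at the 3′ end need not lie in the deleted part of a floxed gene, and the labels do not say which part is floxed, so these UMIs are not a full check of the deletion. Lyz2, whose promoter drives Cre, stood at 3494 CPM in KO and at 11354 CPM in WT mononuclear phagocyte-like cells.

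The promoters of Areg and Vegfa are shown because these genes carry most of the results that follow. RefSeq windows (GRCm38.p6) were found for 3 of the 7 genes, and the 250 bases before the annotated start are printed 5′ to 3′ on the gene's strand. Capitals mark exact matches, searched on both strands. TGACGTCA is the cyclic AMP response element. GGGCGG is a GC box. TATAAA is a TATA box.
Areg, chr5:91139349-91139598, plus strand: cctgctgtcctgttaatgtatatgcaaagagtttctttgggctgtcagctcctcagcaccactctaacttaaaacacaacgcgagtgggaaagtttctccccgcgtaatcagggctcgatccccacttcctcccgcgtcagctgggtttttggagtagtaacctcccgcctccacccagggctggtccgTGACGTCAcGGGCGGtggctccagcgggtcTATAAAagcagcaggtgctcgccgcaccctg
Vegfa, chr17:46032378-46032627, minus strand: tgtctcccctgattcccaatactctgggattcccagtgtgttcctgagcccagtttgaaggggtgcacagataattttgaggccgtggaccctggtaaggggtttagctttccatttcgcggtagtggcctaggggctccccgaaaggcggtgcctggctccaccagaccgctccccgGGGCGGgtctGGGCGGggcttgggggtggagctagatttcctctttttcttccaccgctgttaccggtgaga

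The Areg window holds TGACGTCA, a letter string present in 508 of 32851 promoter windows (1.55%), 61 to 54 bases before the start. It also holds a TATAAA, found in 12.4% of windows, and a GGGCGG, found in 32.7%. The printed Vegfa window holds 2 GC boxes and neither of the other strings. It has no ACGTG, the core of the hypoxia response element, which 16.6% of windows hold. A second annotated Vegfa start, whose window is chr17:46025164-46025413, has 1 such core 211 to 207 bases before it and 1 GC box 158 to 153 bases before it. The Igf1 window holds none of these 4 strings. A match is a description of letters only, and no measurement of factor binding was used.

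In the GENCODE annotation of GRCm38, Areg (chr5:91139599-91148432, plus strand) and Ereg (chr5:91074622-91093646, plus strand) lie near each other on chromosome 5. Vegfa lies at chr17:46016993-46032369 (minus strand) and Osm at chr11:4236420-4241026 (plus strand). Igf1 lies at chr10:87858265-87937042 (plus strand), Pdgfb at chr15:79995874-80014977 (minus strand) and Hbegf at chr18:36504927-36515805 (minus strand).

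Over all kept cells, Areg, Vegfa and Osm were more abundant in the KO library, while Igf1 differed little (-0.09). Areg had 5152 UMIs (91.9 CPM) in KO and 2127 UMIs (39.2 CPM) in WT, a log2 ratio of 1.23. Vegfa had 5427 UMIs (96.9 CPM) in KO and 2815 UMIs (51.8 CPM) in WT (0.90), and Osm had 14819 UMIs (264 CPM) in KO and 7475 UMIs (138 CPM) in WT (0.94). Hbegf had 577 KO and 407 WT UMIs, Pdgfb 565 KO and 421 WT UMIs, Igf1 122 KO and 126 WT UMIs, and Ereg 59 KO and 21 WT UMIs. The libraries were made up of different cells: mononuclear phagocyte-like cells were 25.0% of KO and 10.7% of WT cells, and cDC2-like cells were 19.9% of KO and 7.30% of WT cells. When the WT levels of each cluster were weighted by the KO library's make-up, the log2 ratio was 0.54 for Areg, 0.33 for Vegfa and 0.24 for Osm. The make-up alone gave 0.69 for Areg, 0.58 for Vegfa and 0.70 for Osm. For Hbegf the weighted ratio was 0.01 and the make-up alone gave 0.45. A difference in make-up between the genotypes cannot be told apart from one between the pools or sorts.

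Most UMIs of 5 of the genes came from mononuclear phagocyte-like and cDC2-like cells. The mononuclear phagocyte-like class pools the macrophage-like and monocyte-like clusters, whose border moved between clusterings; it held 1424 KO and 954 WT cells. It supplied 75.2% of Osm UMIs in KO and 66.2% in WT, 66.5% of Vegfa UMIs in KO and 50.1% in WT, and 45.3% of Areg UMIs in KO and 40.2% in WT. For Igf1 it supplied 92.6% in KO and 89.7% in WT. The cDC2-like class supplied 32.0% of Areg UMIs in KO and 26.6% in WT. Regulatory T cell-like cells, 1.97% of KO and 0.817% of WT cells, supplied 8.37% of Areg UMIs in KO and 9.97% in WT. Pdgfb differed from those 5 genes: cDC2-like, migratory DC-like and NK cell-like cells supplied 34.5%, 22.7% and 10.4% of it in KO, and 19.7%, 13.1% and 11.6% in WT. Mononuclear phagocyte-like cells held 83 of its 565 KO and 34 of its 421 WT UMIs. The unnamed clusters held 32 of its KO and 100 of its WT UMIs, more in WT than any named class.

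**Figure D1:**
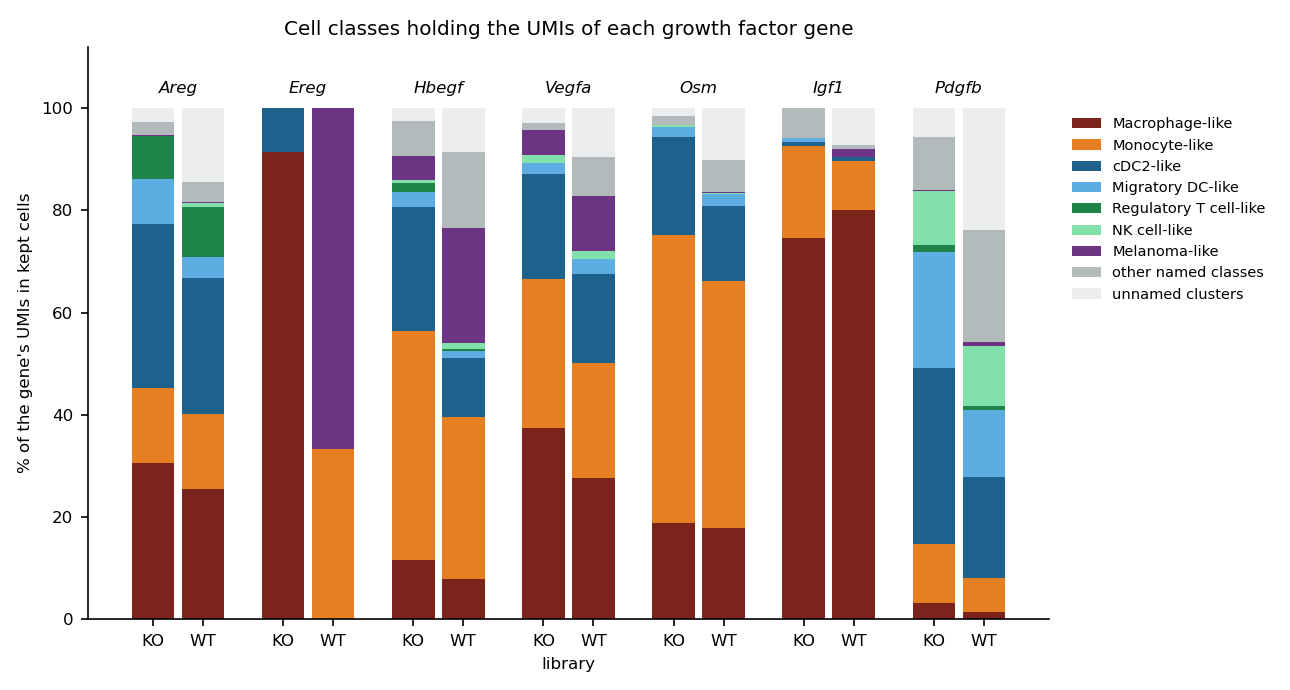
Share of each gene's UMIs by cell class, in percent of the gene's UMIs in all kept cells, with the KO library beside the WT library for each gene. Mononuclear phagocyte-like cells supply 75.2% of Osm in KO and 66.2% in WT, while Pdgfb is spread over dendritic, NK cell-like and mononuclear phagocyte-like classes and unnamed clusters.

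**Figure D2:**
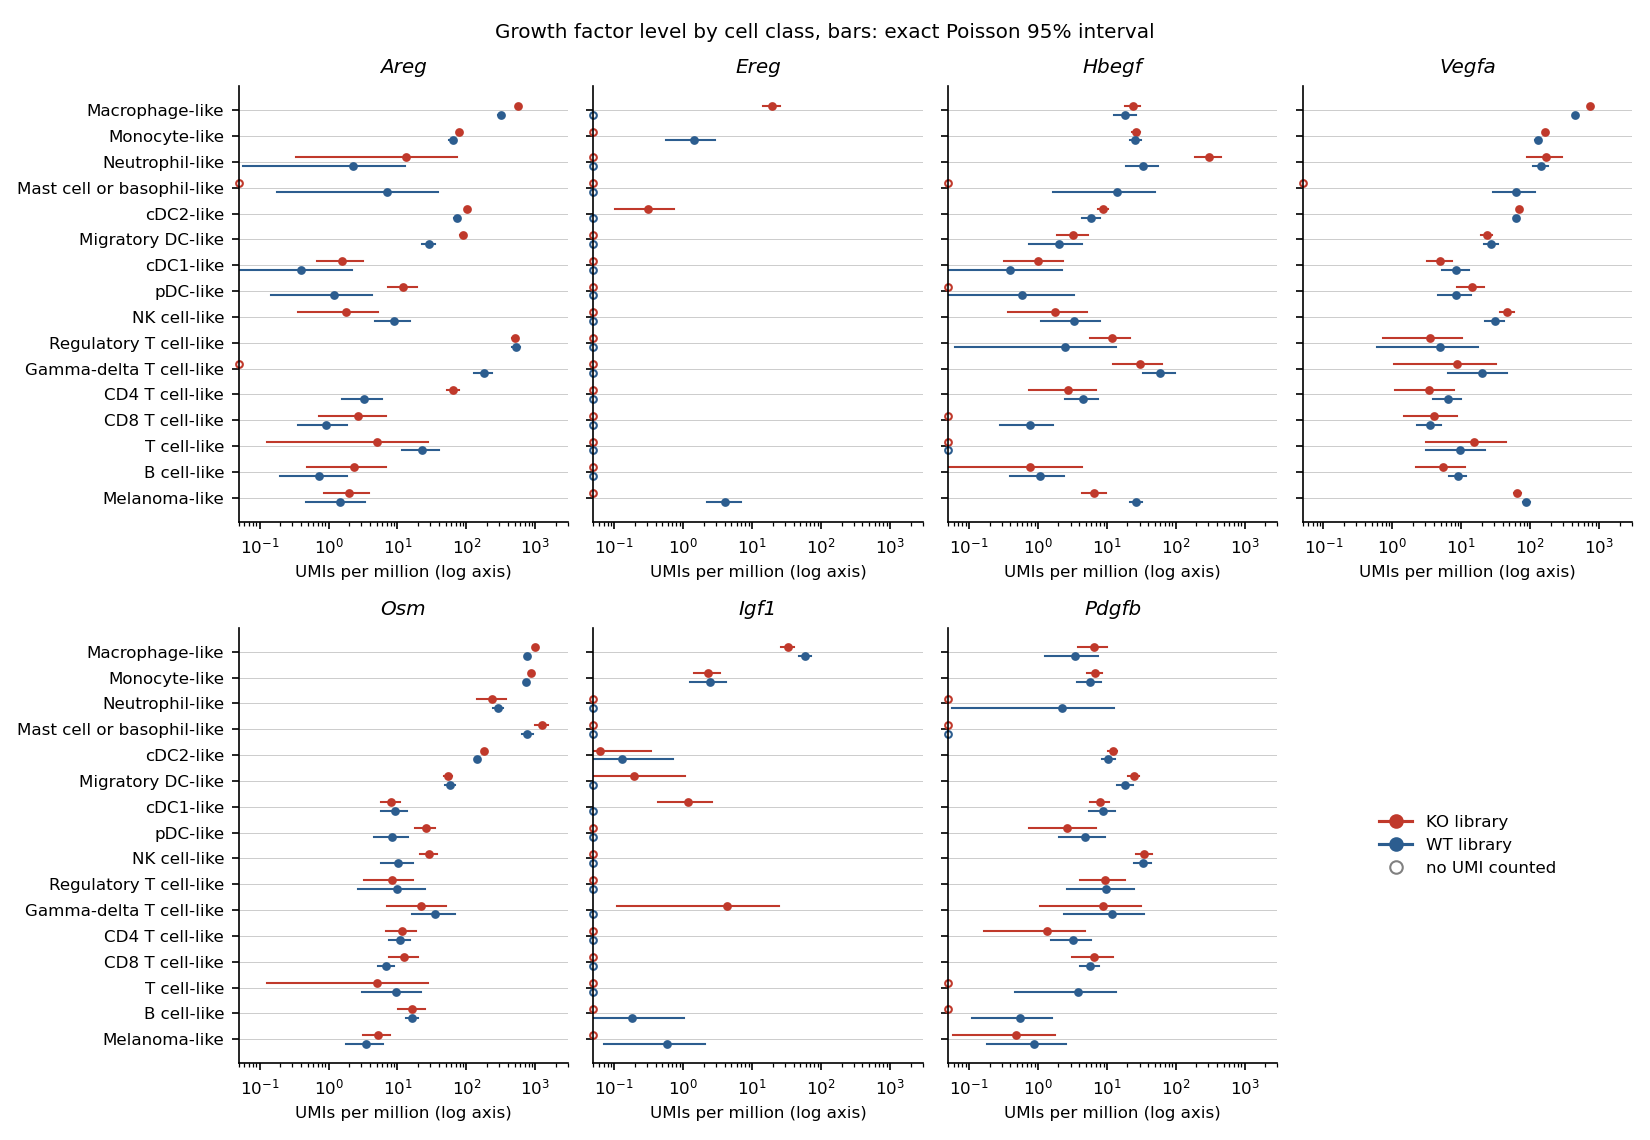
Level of each gene in each cell class, in CPM on a log axis, with exact 95% Poisson intervals for counting error, for the KO and the WT library. Open circles mark classes with no UMI. Areg is highest in macrophage-like and regulatory T cell-like cells, Vegfa in macrophage-like cells, Osm in macrophage-like, monocyte-like and mast cell- or basophil-like cells, and Pdgfb in NK cell-like cells.

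A gene was read as higher or lower in a class when the log2 ratio of KO over WT CPM was at least 0.5 in size, the class held at least 20 cells in each library and the gene had at least 20 UMIs over both. This size says nothing about replicates. All 7 genes could be read so in mononuclear phagocyte-like cells: Areg and Ereg were higher, against 8.81% of all genes there, and Igf1 was lower, against 11.3% of all genes. In the macrophage-like class 4 genes (Areg, Ereg, Vegfa and Pdgfb) were higher, against 15.3%, and Igf1 was lower, against 13.9%. Of these, Pdgfb rested on 18 KO and 6 WT UMIs (interval -0.50 to 2.52), no difference beyond counting error. All 54 Ereg UMIs came from 1 KO cell. In the monocyte-like class none of 6 genes passed in either direction, where 9.08% of all genes were higher and 10.9% lower. In cDC2-like cells Areg and Hbegf were higher among 5 genes, against 8.15%, and none was lower, against 10.9%. Over 49 pairs of a gene and a class, 17 were higher and 7 lower in KO. In these classes 8.15% to 21.7% of all genes were higher and 8.35% to 35.1% lower. Some of these pairs did not differ beyond counting error. Among the higher pairs these were Pdgfb in macrophage-like, Hbegf in migratory DC-like, Osm in melanoma-like and Vegfa in plasmacytoid DC-like cells. Among the lower pairs they were Vegfa in B cell-like, CD4 T cell-like and cDC1-like cells and Hbegf in gamma-delta T cell-like cells.

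**Figure D3:**
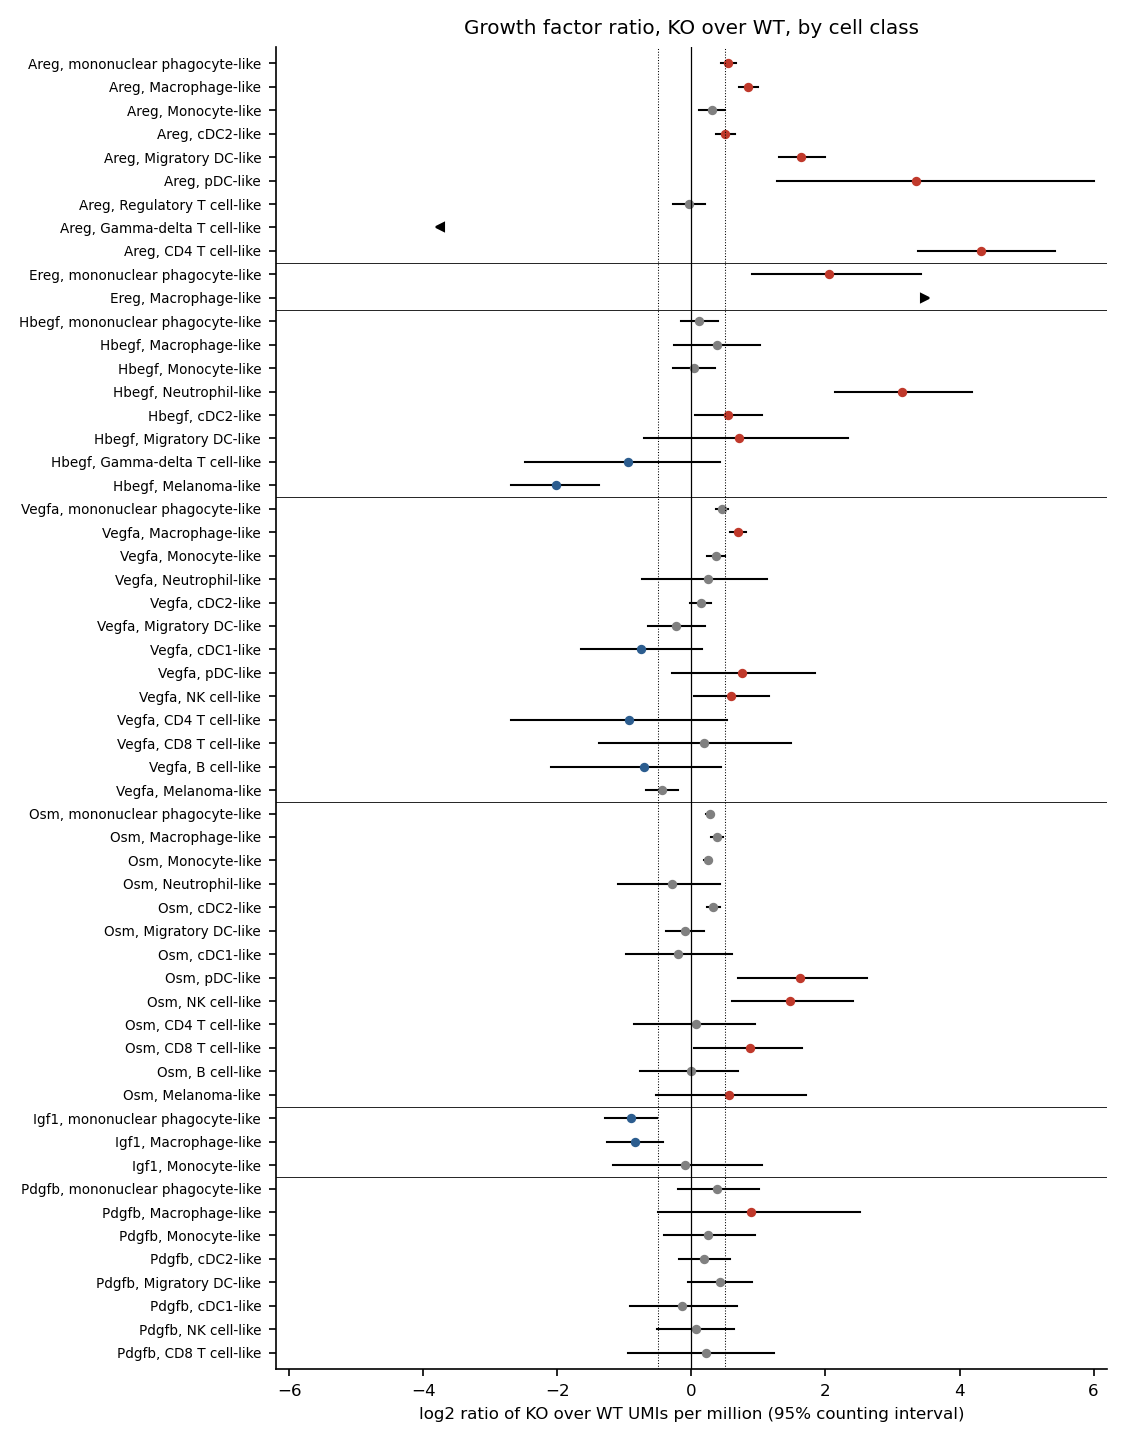
Log2 ratio of KO over WT CPM for each gene and class, with exact 95% intervals for counting error and the size of 0.5 marked by dotted lines; red and blue points lie past it, and triangles are bounds where 1 library had no UMI. Areg lies above 0.5 in mononuclear phagocyte-like, cDC2-like and migratory DC-like cells and at -0.04 in regulatory T cell-like cells.

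Areg was carried by few cells with many UMIs each. It had 2334 UMIs (188 CPM) in 124 KO cells and 856 UMIs (129 CPM) in 64 WT cells of the mononuclear phagocyte-like class, a log2 ratio of 0.55 (interval 0.43 to 0.66). These were 8.71% of KO and 6.71% of WT cells of the class. In B cell-like cells, which should lack Areg, 0.765% of KO cells (median 3148.5 UMIs) and 0.219% of WT cells (median 2446 UMIs) had an Areg UMI; mononuclear phagocyte-like cells had medians of 8902 UMIs in KO and 7049 UMIs in WT. The 5 richest cells held 24.7% of the Areg UMIs of the class in KO and 48.5% in WT. With every cell thinned to 2000 UMIs, which left out 151 KO and 198 WT cells, 5.97% of KO and 4.37% of WT cells had an Areg UMI. The single richest cell had 150 Areg UMIs in KO and 133 in WT, and 50% of the UMIs were reached with 15 KO cells and 6 WT cells. Without the 5 richest cells of each library the log2 ratio was 1.09, and without cells that also held markers of another lineage (256 KO and 584 WT cells of all classes) it was 0.25.

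**Figure D4:**
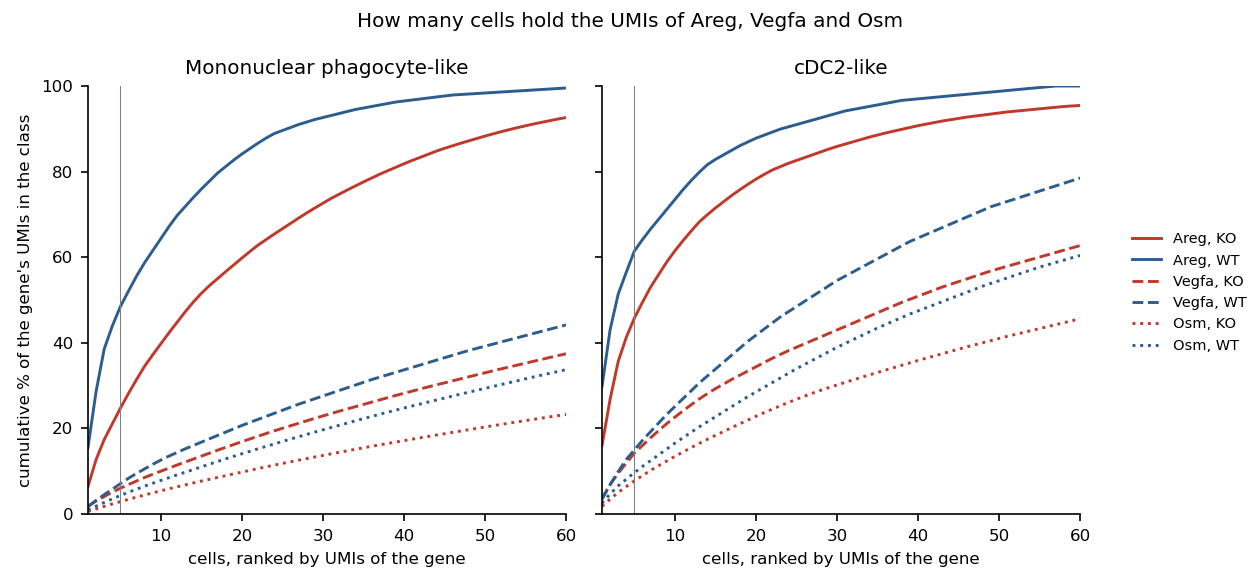
Cumulative percent of a gene's UMIs in mononuclear phagocyte-like and cDC2-like cells against cell rank, cells ordered from most to fewest UMIs of the gene, for the KO and the WT library, with a line at 5 cells. In mononuclear phagocyte-like cells Areg reaches 24.7% in KO and 48.5% in WT there, while Osm is at 2.91% in KO and 4.35% in WT.

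Within the class, Areg sat mainly in a macrophage-like cluster led by Arg1, Cxcl3, Inhba, Spp1 and Thbs1, of 240 KO and 165 WT cells. It had 1578 UMIs there (611 CPM) in 53 KO cells and 542 UMIs (363 CPM) in 30 WT cells, a log2 ratio of 0.75. The 5 richest KO cells had 150, 147, 109, 85 and 81 UMIs, and the 5 richest WT cells had 112, 85, 46, 39 and 31 UMIs. Of the 6 genes that could be read in this cluster, Areg, Ereg, Vegfa and Pdgfb were higher, against 17.1% of all genes, and none was lower, against 12.3%. Pdgfb rested on 17 KO and 6 WT UMIs (interval -0.70 to 2.34), and all 54 Ereg UMIs came from 1 KO cell. The main monocyte-like cluster, led by Chil3, Lyz2 and Hp, had Areg at 79.8 CPM in KO and at 65.3 CPM in WT (0.29). The macrophage-like cluster led by Ccl8, Folr2 and Pf4, of 49 KO and 64 WT cells, had no Areg UMI in either library.

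In dendritic cells the size of the Areg difference depended on where one class ended and the next began. cDC2-like cells had 1650 Areg UMIs (103 CPM) in 122 KO cells and 566 UMIs (72.5 CPM) in 57 WT cells, a log2 ratio of 0.51 (interval 0.37 to 0.65). Their 5 richest cells held 45.8% of the UMIs in KO and 61.5% in WT, and 1 KO cell had 265 UMIs and 1 WT cell 169. Migratory DC-like cells had 455 UMIs (88.3 CPM) in 23 KO cells and 84 UMIs (28.3 CPM) in 11 WT cells, a log2 ratio of 1.64 (interval 1.30 to 1.99). Among 5 genes read in that class Areg and Hbegf were higher, against 8.68% of all genes, and none was lower, against 14%. Hbegf rested on 17 KO and 6 WT UMIs (interval -0.70 to 2.34). At another clustering resolution or after removal of the highest doublet scores, the cDC2-like ratio was -0.32 or -0.089. With both classes pooled, 145 of 1671 KO cells and 68 of 1059 WT cells had Areg, at 99.4 CPM in KO and at 60.3 CPM in WT, a log2 ratio of 0.72 that lay between 0.52 and 1.48 under every alternative run. Markers of migratory dendritic cells (all 10 detected) summed to 1134 CPM in KO and 537 CPM in WT cDC2-like cells, and 5 erythroid markers to 0.437 CPM in KO, with 4 detected, and 481 CPM in WT, with all detected; the part of either in the Areg ratio was not tested.

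Regulatory T cell-like cells had a high Areg level in both libraries, with no difference beyond counting error. They had 431 UMIs (507 CPM) in 33 of 112 KO cells and 212 UMIs (520 CPM) in 24 of 73 WT cells, a log2 ratio of -0.04 (interval -0.28 to 0.21). The 5 richest cells had 55, 44, 40, 38 and 30 UMIs in KO and 54, 25, 19, 16 and 11 UMIs in WT. Areg was the 1 gene of the set with enough UMIs to be read there, and it was neither higher nor lower, against 15.3% of all genes higher and 15.1% lower. As a mean over cells, which weights each cell equally, the ratio was 0.58.

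The order of classes by Areg level differed between the libraries. In KO it ran from macrophage-like (567 CPM) over regulatory T cell-like (507 CPM) to cDC2-like (103 CPM) and migratory DC-like cells (88.3 CPM), each above the next by the counting interval of their ratio. For the first pair the intervals of their own levels met. Migratory DC-like, monocyte-like (78.5 CPM) and CD4 T cell-like cells (64.5 CPM) did not differ beyond counting error from one to the next. In WT it ran from regulatory T cell-like (520 CPM) over macrophage-like (315 CPM) and gamma-delta T cell-like (178 CPM) to cDC2-like (72.5 CPM) and monocyte-like cells (63.6 CPM), the last pair without a difference beyond counting error, and then to migratory DC-like cells (28.3 CPM).

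Other lymphoid classes had Areg in single cells. CD4 T cell-like cells had 95 UMIs in 11 of 340 KO cells and 10 UMIs in 8 of 665 WT cells, a log2 ratio of 4.32 (interval 3.38 to 5.43), with 41 of the KO UMIs in 1 cell and 92.6% of them in 5. In these 11 KO cells, Gata3 (a type 2 transcription factor) had a UMI in 8, Il1rl1 (the interleukin-33 receptor) in 4, Il5 in 2 and Cd3e in 3. Ikzf2 had a UMI in 7, Il2ra and Cd4 in 4 each, and Il13 and Foxp3 in none. In the 329 KO cells of the class without Areg, Gata3 had a UMI in 107, Il1rl1 in 17 and Cd3e in 291. There Ikzf2 had a UMI in 110, Il2ra in 21, Cd4 in 203, and Il5 and Il13 in none. In the 8 WT cells with Areg, Gata3 had a UMI in 4, Cd3e in 5 and Cd4 in 6. Il1rl1, Ikzf2 and Il2ra had a UMI in 1 of them each, and Il5, Il13 and Foxp3 in none. These genes do not settle what the cells are. Among 3 genes read in this class Areg was higher, against 11.2% of all genes, and Vegfa lower, against 10.4%. Vegfa rested on 5 KO and 20 WT UMIs (interval -2.69 to 0.53). Gamma-delta T cell-like cells had no Areg UMI in 53 KO cells, which, at 3 counts, allows a share of cells with an Areg UMI of up to 5.66%. In WT they had 45 UMIs in 3 of 68 cells, 36 of them in 1 cell. With the KO count set at 3 UMIs, the UMI level was at least 13.5-fold lower in KO, a bound that rests on those 3 WT cells. Counted by cells, 3 of 68 in WT lies within the limit allowed for KO, so the share of cells shows no difference. In plasmacytoid DC-like cells 18 UMIs in KO, 16 of them in 1 cell, stood against 2 in WT.

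Ereg was close to absent, and single cells decided its totals. In KO, 54 of its 59 UMIs came from 1 cell of the Arg1-led macrophage-like cluster and the other 5 from 4 cDC2-like cells. In WT, 14 of its 21 UMIs came from 3 melanoma-like cells and 7 from 1 cell of a monocyte-like cluster with low UMI totals. Its higher level in KO mononuclear phagocyte-like cells is therefore a statement about 1 cell.

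Hbegf did not differ in mononuclear phagocyte-like cells beyond counting error. It had 325 UMIs (26.2 CPM) in 131 KO cells and 161 UMIs (24.2 CPM) in 76 WT cells, a log2 ratio of 0.11 (interval -0.16 to 0.40), and the 5 richest cells held 20.3% in KO and 23.0% in WT. cDC2-like cells had 141 UMIs (8.80 CPM) in KO and 47 UMIs (6.02 CPM) in WT (0.55, interval 0.06 to 1.06). Few cells set the level in the classes where it stood highest. Neutrophil-like cells had 23 UMIs in 4 of 24 KO cells (303 CPM) and 15 UMIs in 5 of 145 WT cells (34.2 CPM), a log2 ratio of 3.15, with 16 of the KO UMIs in 1 cell. Hbegf was the 1 gene of 3 higher in that class, against 19.4% of all genes, and none was lower, against 35.1%. Gamma-delta T cell-like cells had 30.7 CPM in KO and 59.2 CPM in WT, on 7 KO and 15 WT UMIs (interval -2.48 to 0.43). Of the 2 genes read there, Areg and Hbegf, both were lower, against 17.9% of all genes, and 13.9% were higher. Melanoma-like cells, which passed the CD45 sort, had 27 UMIs (6.63 CPM) in KO and 92 UMIs (26.9 CPM) in WT, 30 of the WT UMIs in 1 cell (-2.02). Hbegf was the 1 lower gene of 3 there, against 11.7% of all genes. Osm was the 1 higher gene, against 21.7%, on 21 KO and 12 WT UMIs (interval -0.53 to 1.71).

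Vegfa was spread over many cells: 548 KO cells (38.5%) and 360 WT cells (37.7%) of the mononuclear phagocyte-like class had a UMI, against 1.28% of KO and 2.25% of WT B cell-like cells. It had 3611 UMIs (291 CPM) in KO and 1410 UMIs (212 CPM) in WT, a log2 ratio of 0.46 (interval 0.37 to 0.55), just short of the size of 0.5. The 5 richest cells held 6.04% in KO and 7.09% in WT, and 94 KO cells and 74 WT cells were needed to reach 50% of the UMIs. With every cell thinned to 2000 UMIs, 26.1% of KO and 24.3% of WT cells of the class had a Vegfa UMI. Averaged over cells with equal weight the ratio was 0.075, and without cells holding markers of another lineage it was 0.32.

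The mononuclear phagocyte-like clusters moved in different directions for Vegfa. The Arg1-led macrophage-like cluster had 2024 UMIs (784 CPM) in 211 of 240 KO cells and 774 UMIs (519 CPM) in 139 of 165 WT cells, a log2 ratio of 0.60 (interval 0.48 to 0.72). The Chil3-led monocyte-like cluster had 165 CPM in KO and 108 CPM in WT (0.62), the 1 gene of 6 higher there, against 11.1% of all genes, and none was lower, against 10.5%. The monocyte-like cluster with low UMI totals went the other way, at 155 CPM in KO and at 326 CPM in WT (-1.07, interval -1.46 to -0.69); its cells had medians of 1986 UMIs in KO and 1560 UMIs in WT. Of 5 genes read in it, Vegfa was lower, against 14.4% of all genes, and Hbegf higher, against 15.3%. The Ccl8- and Folr2-led cluster had 1 Vegfa UMI in KO and 3 in WT.

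Other classes had less Vegfa. cDC2-like cells had 69.6 CPM in KO and 63.1 CPM in WT (0.14), in 250 KO and 145 WT cells. In their main cluster, led by Cd209a, Hbegf was the 1 gene of 5 that was higher, against 9.16% of all genes, and none was lower, against 9.43%. cDC1-like cells had 25 Vegfa UMIs (4.98 CPM) in KO and 21 UMIs (8.35 CPM) in WT (-0.75, interval -1.64 to 0.16). Vegfa was the 1 gene of 3 that was lower there, against 8.35% of all genes, and none was higher, against 9.69%. This cDC1-like value changed direction, to 1.57 without the 5 richest cells, 1.498 with the 10% mitochondrial limit and 0.74 at resolution 0.5. In B cell-like cells Vegfa was the 1 gene of 2 that was lower, against 18.6%, and none was higher, against 10.1%. This rested on 7 KO and 49 WT UMIs (interval -2.10 to 0.44). NK cell-like cells had 46.2 CPM in KO and 30.7 CPM in WT (0.59); Vegfa and Osm were higher among 3 genes read there, against 8.86% of all genes, and none was lower, against 11%. Melanoma-like cells had 65.1 CPM in KO and 88.2 CPM in WT (-0.44). In both libraries macrophage-like cells came first, at 728 CPM in KO and at 451 CPM in WT, followed by neutrophil-like and monocyte-like cells, which did not differ beyond counting error.

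Osm was detected in most mononuclear phagocyte-like cells. It had 11142 UMIs (897 CPM) in 1067 KO cells (74.9%) and 4947 UMIs (743 CPM) in 610 WT cells (63.9%), a log2 ratio of 0.27 (interval 0.22 to 0.32). B cell-like cells had an Osm UMI in 4.85% of KO and 4.55% of WT cells and the same 16.4 CPM in both. With every cell thinned to 2000 UMIs, 59.3% of KO and 52.4% of WT cells of the class had an Osm UMI. The level was shared by many cells, as the 5 richest held 2.91% in KO and 4.35% in WT. Without cells holding markers of another lineage the ratio was 0.21.

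Osm was high in both the Arg1-led macrophage-like cluster (1081 CPM in KO and 884 CPM in WT) and the Chil3-led monocyte-like cluster (892 CPM in KO and 750 CPM in WT). It was near the floor in the Ccl8- and Folr2-led cluster, with 6 UMIs in KO and 9 in WT. Mast cell- or basophil-like cells also carried it, with 89 UMIs in 6 of 10 KO cells and 110 UMIs in 15 of 24 WT cells, too few KO cells to be read for a difference. Neutrophil-like cells had 237 CPM in KO and 289 CPM in WT, and cDC2-like cells 177 CPM in KO and 141 CPM in WT (0.33). NK cell-like cells had 28.4 CPM in KO and 10.2 CPM in WT (1.47). Plasmacytoid DC-like cells had 25.6 CPM in KO and 8.36 CPM in WT (1.62). Areg, Vegfa and Osm were all higher among 3 genes read there, against 10.5% of all genes, where 9.62% were lower. Vegfa there rested on 21 KO and 14 WT UMIs (interval -0.28 to 1.85). Without the highest doublet scores, Osm there was at -0.74 and Vegfa at 0.058, and Vegfa was at 0.016 clustered without the 7 genes. CD8 T cell-like cells had 12.6 CPM in KO and 6.87 CPM in WT (0.87), the 1 gene of 3 higher, against 12.4%, and none was lower, against 11.7%. B cell-like cells, which should lack Osm, stood at 16.4 CPM in both libraries, so levels of this order are not separated from free RNA.

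Igf1 marked a small macrophage-like cluster and was itself one of the genes that defined it, together with Ccl8, Folr2, Pf4 and C1qa. That cluster had 87 UMIs (436 CPM) in 25 of 49 KO cells and 91 UMIs (393 CPM) in 30 of 64 WT cells, a log2 ratio of 0.15 (interval -0.29 to 0.59). Over the mononuclear phagocyte-like class it had 113 UMIs in each library, which came to 9.10 CPM in KO and 17.0 CPM in WT (-0.90). Its lower class level thus stood beside a level within the cluster that did not differ beyond counting error, and the cluster held 49 of 1424 KO cells and 64 of 954 WT cells of the class. The Arg1-led cluster had 4 Igf1 UMIs in KO and 10 in WT. Folr2, a folate receptor of tissue-resident-type macrophages, was the gene most like Igf1 across classes.

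Pdgfb was spread thinly, with 1 or a few UMIs per cell. NK cell-like cells had the highest level in both libraries: 59 UMIs (34.9 CPM) in 50 of 316 KO cells and 49 UMIs (33.4 CPM) in 41 of 355 WT cells, a log2 ratio of 0.06 (interval -0.51 to 0.64). No NK cell-like cell had more than 2 UMIs in KO or 3 in WT. Migratory DC-like cells had 128 UMIs (24.8 CPM) in KO and 55 UMIs (18.5 CPM) in WT (0.42), and cDC2-like cells 12.2 CPM in KO and 10.6 CPM in WT. Mononuclear phagocyte-like cells had 6.68 CPM in KO and 5.11 CPM in WT. By the counting interval of their ratio, NK cell-like cells were above migratory DC-like cells in both libraries, although in KO the intervals of their own levels met.

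In cDC2-like cells and over the mononuclear phagocyte-like class, a larger share of cells with Areg than of cells without it had Vegfa. In cDC2-like cells a Vegfa UMI was found in 43.4% of cells with Areg and 19.5% of cells without it in KO, and in 45.6% with and 20% without in WT. Median depths were 14864 UMIs with and 13669 without Areg in KO, and 12433 with and 11316 without in WT. In mononuclear phagocyte-like cells the shares were 62.9% with and 36.2% without Areg in KO, and 65.6% with and 35.7% without in WT. Depths differed more there, with medians of 11566 UMIs with and 8716.5 without Areg in KO, and 9637 with and 6837 without in WT. The part of depth in these shares was not tested. Within the Arg1-led cluster, where most cells had Vegfa, the shares were 88.7% with and 87.7% without in KO, and 83.3% with and 84.4% without in WT. Within the Chil3-led monocyte-like cluster they were 44.4% with and 31.5% without in KO, and 55.2% with and 29.5% without in WT.

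Cells with at least 5 Areg UMIs were set beside cells with none inside the largest cDC2-like cluster, led by Cd209a; these sets were chosen by Areg, so Areg itself is no result. There were 40 rich and 873 Areg-free cells in KO, and 19 rich and 468 Areg-free cells in WT. Vegfa was higher in the rich cells by 2.30 (log2) in KO and 2.71 in WT, and Osm by 1.03 in KO and 1.66 in WT. Of the 14 hypoxia-response genes listed, the 13 with a UMI in the rich KO cells were all higher there. Their median was 1.35, against 16% of all genes higher and an all-gene median of -0.16. In WT 12 of 14 were higher, with a median of 1.36, against 18.6% of all genes and a median of -0.15. Hilpda, a lipid-droplet protein, was higher by 1.86 in KO and 2.56 in WT, Egln3, an oxygen-sensing hydroxylase, by 1.99 in KO and 3.16 in WT, and Bnip3, a mitophagy receptor, by 1.88 in KO and 2.28 in WT. Adm, which encodes adrenomedullin, was at -1.56 in the rich WT cells. In KO it had no UMI in the rich and 44 UMIs in the Areg-free cells, and it was left out of the KO count above. Of the immediate early genes, 3 were higher and 3 lower of 13 in KO, and none was higher and 4 lower of 12 in WT, where 29.5% of all genes in KO and 31.8% in WT were lower.

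Marker sums were read in these Areg-rich cells and do not settle their identity. The 9 monocyte markers summed to 1667 CPM in rich and 1491 CPM in Areg-free KO cells, and to 1885.5 CPM in rich and 1592 CPM in Areg-free WT cells. The 12 macrophage markers summed to 766 CPM in rich and 561 CPM in Areg-free KO cells, and to 641 CPM in rich and 544 CPM in Areg-free WT cells. cDC2 markers summed to 2310 CPM in rich and 3079 CPM in Areg-free KO cells, and to 2185 CPM in rich and 2639 CPM in Areg-free WT cells. Migratory DC markers summed to 3130 CPM in rich and 1097 CPM in Areg-free KO cells, and to 1349 CPM in rich and 499.6 CPM in Areg-free WT cells. The rich cells thus kept most of the cDC2 sum and had a higher migratory DC sum, and their median depth was 15003 UMIs against 13915 in KO and 10737 against 11912 in WT. Genes that stood highest in the rich KO cells, chosen after their values were seen, included Acod1 (3.87 in KO and 4.06 in WT), Olr1 (3.35 in KO and 3.69 in WT), Inhba (2.81 in KO and 3.47 in WT), Cxcl2 (2.71 in KO and 2.55 in WT) and Cd14 (2.58 in KO and 2.68 in WT). Others ranked there were not higher in WT by the size of 0.5: Vcan (2.65 in KO and -0.40 in WT), Cxcl11 (2.59 and -1.45), Ccl17 (2.54 and -0.37) and Lpl (2.51 and 0.23). Each of these had 10 or fewer UMIs in the rich WT cells. Inhba and Il1a (3.17 in KO and 2.36 in WT) were also leading genes of the Arg1-led macrophage-like cluster. Genes of cytotoxic lymphocytes were among those that stood highest in the rich KO cells: Gzma, a granzyme, was at 4.67 in KO and, on 1 UMI, at -0.47 in WT, and Nkg7, a granule protein, at 2.62 in KO and at 2.89 in WT. The part of such RNA in the other values was not tested. In the Arg1-led macrophage-like cluster the hypoxia-response genes were not higher with Areg: none of 14 was higher and 5 were lower in rich KO cells (median -0.29), and none of 13 was higher and 4 lower in rich WT cells (median -0.12). Of all genes there, 11.7% were higher and 17.8% lower in KO, and 14.3% were higher and 28.7% lower in WT. That cluster had 40 rich and 187 Areg-free cells in KO, and 19 rich and 135 Areg-free cells in WT. Median depths were 13510 UMIs in rich and 10534 in Areg-free KO cells, and 9768 and 9082 in WT. Immediate early genes in that cluster were 1 higher and 1 lower of 13 in KO (median 0.10), and 6 higher and none lower of 13 in WT (median 0.49). The comparison was also made in 2 further sets of cells. In the Chil3-led monocyte-like cluster, 6 of 13 hypoxia-response genes were higher and 2 lower with Areg in KO (median 0.43), against 16.8% and 22.1% of all genes. In WT 7 of 12 were higher and 1 lower (median 0.64), against 29.8% and 25.2%. There were 29 rich and 839 Areg-free cells in KO, and only 8 rich and 471 Areg-free cells in WT. Median depths were 12039 UMIs in rich and 9498 in Areg-free KO cells, and 9639 and 8436 in WT. Regulatory T cell-like cells had 5 of 11 higher and 1 lower in KO (median 0.42), against 18.2% and 21.0% of all genes. In WT they had 1 of 6 higher and 1 lower (median -0.12), against 16.6% and 23.1%. These sets were 19 rich and 79 Areg-free cells in KO, and 14 rich and 49 Areg-free cells in WT. Their median depths differed, at 8653 UMIs in rich and 5954 in Areg-free KO cells, and 10243 and 3458 in WT.

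**Figure D5:**
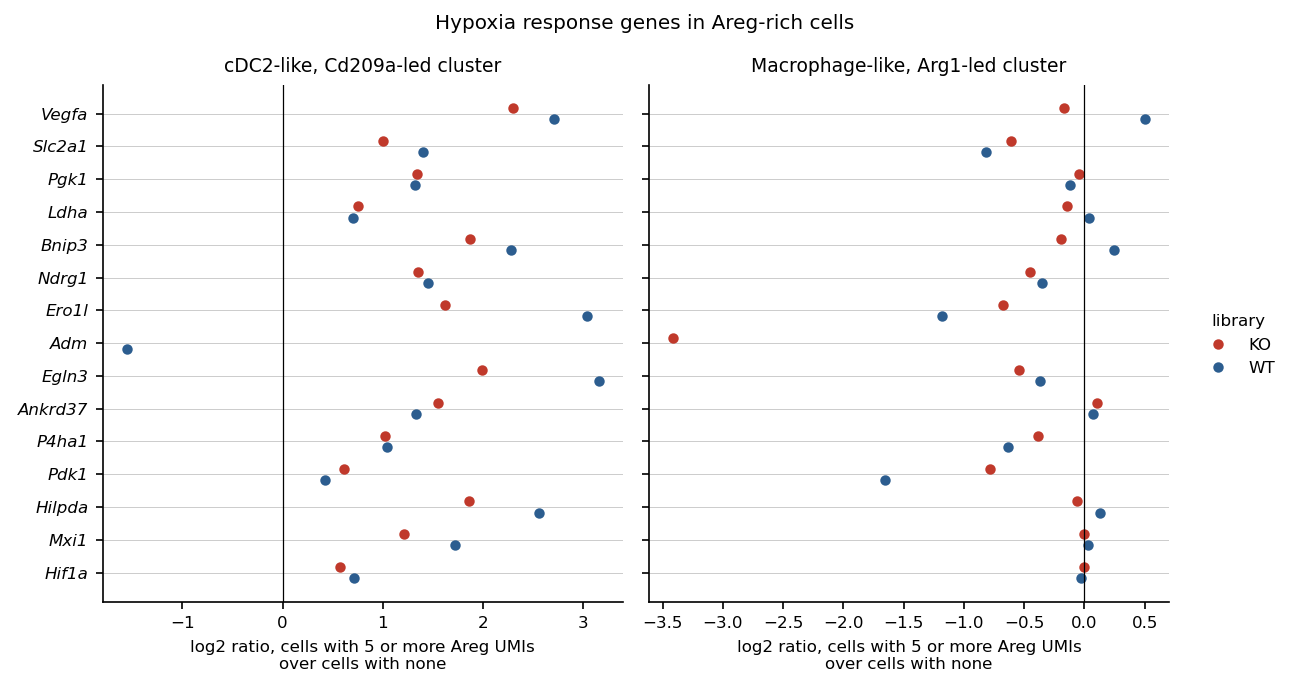
Log2 ratio of Areg-rich (at least 5 UMIs) over Areg-free cells for the hypoxia-response genes and Vegfa, in the Cd209a-led cDC2-like cluster and in the Arg1-led macrophage-like cluster, for the KO and the WT library. In the cDC2-like cluster all points but Adm in WT lie above 0, with medians of 1.35 in KO and 1.36 in WT, while in the macrophage-like cluster the medians are -0.29 in KO and -0.12 in WT.

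Between the genotypes, the hypoxia-response genes were read in the same classes. In mononuclear phagocyte-like cells none of 14 was higher or lower in KO, with a median of -0.09, beside an all-gene median of -0.01. In macrophage-like cells 1 of 14 was higher, and in cDC2-like cells 2 were higher (Ndrg1 0.92 and Hilpda 0.68) and 3 lower, among them Adm (-1.75). The 13 immediate early genes were more often higher: 9 were higher and none lower in macrophage-like cells (median 0.80), 4 and none in cDC2-like cells (median 0.36), and 3 and none in monocyte-like cells (median 0.40). Of all genes, 15.3% were higher and 13.9% lower in macrophage-like, 8.15% and 10.9% in cDC2-like, and 9.08% and 10.9% in monocyte-like cells. Egr1, an early transcription factor of growth-factor and stress signals, had 1375 CPM in the KO and 436 CPM in the WT macrophage-like cells (1.66).

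Other growth-factor genes of the same cells were higher in some cases and lower in others. Nrg1, a further ligand of the EGF receptor family, had 64.4 CPM in the KO and 36.6 CPM in the WT macrophage-like cells (0.82), 62.7 CPM in KO and 35.0 CPM in WT monocyte-like cells (0.84), and 11.98 CPM in KO and 4.36 CPM in WT cDC2-like cells (1.46). Inhba, the activin A subunit, was higher in macrophage-like (0.80) and monocyte-like cells (0.55). Spp1, which encodes osteopontin, was lower in macrophage-like (-0.91), monocyte-like (-0.83) and cDC2-like cells (-1.71). Pdgfa, the sister chain of PDGF-B, was lower by the size of 0.5 in all 3 classes (-0.53, -0.68 and -0.90), but in none beyond counting error. The intervals were -1.36 to 0.31, -1.79 to 0.45 and -1.84 to 0.05. They rest on 28, 17 and 22 KO UMIs and 25, 14 and 20 WT UMIs. Of 12 other secreted growth factors listed, 3 of 8 read were higher and 2 lower in macrophage-like cells, against 15.3% and 13.9% of all genes. In monocyte-like cells 1 of 9 was higher and 1 lower, against 9.08% and 10.9%. In cDC2-like cells 1 of 8 was higher and 1 lower, against 8.15% and 10.9%.

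Egfr, Osmr and Pdgfrb had few UMIs among the sorted cells, while other receptors for these ligands were found in several immune classes. Egfr had 23 UMIs in 20 of 144 KO and 21 UMIs in 17 of 209 WT plasmacytoid DC-like cells, and none in KO and 1 in WT mononuclear phagocyte-like cells. Osmr, the oncostatin M receptor, had 9 UMIs in KO and 32 UMIs in WT melanoma-like cells, and at most 1 UMI in mononuclear phagocyte-like and cDC2-like cells. Pdgfrb, a PDGF receptor, had 6.63 CPM in KO and 32.4 CPM in WT melanoma-like cells. VEGF receptors were found in immune classes: Flt1 at 15.6 CPM in KO and at 17.4 CPM in WT mononuclear phagocyte-like cells, and Kdr at 28.2 CPM in KO and at 18.6 CPM in WT cDC2-like cells. Nrp2, a VEGF co-receptor, had 226 CPM in the KO and 181 CPM in the WT migratory DC-like cells, in 304 of 538 KO and 189 of 407 WT cells. Lifr, a receptor chain that can bind oncostatin M, had 265 CPM in the KO and 243 CPM in the WT plasmacytoid DC-like cells. Igf1r, the IGF-1 receptor, had 303 CPM in the KO and 116 CPM in the WT neutrophil-like cells, on 23 KO and 51 WT UMIs. It had 34.9 CPM in the KO and 11.6 CPM in the WT macrophage-like cells (1.59), but 8.30 CPM in the KO and 11.7 CPM in the WT monocyte-like cells (-0.50).

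Across 31 class and library points and 6798 genes, the genes whose log levels followed each member most closely were listed by Pearson's r, as a description without a test, since points share libraries and cells. Osm was closest to Ccl6 (0.96), Adora2b (0.94) and Tgm2 (0.94), and Igf1 to Folr2 (0.96) and Arg1 (0.90). The macrophage-like points pool 2 clusters, so the value for Arg1 does not mean that the same cells carried both genes. Igf1 had 4 KO and 10 WT UMIs in the Arg1-led cluster, and 87 KO and 91 WT UMIs in the Ccl8- and Folr2-led cluster. Vegfa was closest to Thbs1 (0.88), Ninj1 (0.88) and Fn1 (0.87), and its r with Osm was 0.81. Hbegf was closest to Smox (0.86), Pdgfb to Pik3r1 (0.82) and Klri2 (0.78), Areg to Il10 (0.76) and Got1 (0.73), and Ereg to Errfi1 (0.65).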

How the data were processed

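The authors deposited raw UMI counts per gene and barcode for 1 KO and 1 WT library (10x 3′ v3 chemistry, per the labels' protocols), with a minimum of 500 UMIs per barcode in each file. Per the submitters' processing notes, bcl2fastq 2.20, Cell Ranger 3.1.0, Seurat 4.0.1 and GRCm38 were used; the matrix header names another Cell Ranger version. The 7 genes, the pathway lists and the marker lists were chosen with earlier results of these data known.

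Both libraries were clustered together with scanpy 1.11.5 (Python 3.11.15). Barcodes with under 200 genes or over 15% mitochondrial UMIs were removed (116 and 552 in KO, 64 and 677 in WT). Counts were normalised to 10000 per cell and logged, and 2000 variable genes, 30 principal components, 15 neighbours and Leiden resolution 1.0 gave 28 clusters. A cluster was named from at least 3 markers found in at least 10% of its cells and over 2-fold higher, with limits on the score (1.2) and on the mean doublet score (0.17) set after the clusters were seen. Scrublet called 1 KO cell, which was removed, and no WT cell a doublet, so doublets were in effect not removed.

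Counts were summed per class and library and divided by the class total to give CPM. CPM of 3′ counts is not comparable between genes. Intervals for sums are exact Poisson, for shares exact binomial (Clopper-Pearson), and for KO over WT ratios exact conditional binomial, at 95% and for counting error only. A count of 0 was set at 3 UMIs for a bound. No differential test was possible with 1 library per group. The calculation recovered known ratios in Poisson counts simulated from class sums of these libraries. Such counts hold no clumping of UMIs in single cells, so this checked the arithmetic only. It cannot say how well the intervals hold for genes carried by few cells, such as Areg. Genes are named by a rule: all members, at most the 3 largest ratios per pathway list and class, and the 4 genes most like each member by Pearson's r of log2(CPM + 5) among genes with at least 200 UMIs and 50 CPM in 1 class. Receptor genes, genes high in Areg-rich cells and lymphoid markers in Areg-positive CD4 T cell-like cells were named after their values were seen. Alternatives were another scaling, leaving out the 5 richest cells, the highest 6% of doublet scores or cells with markers of another lineage, a 10% mitochondrial limit, 3 other clusterings, a mean over cells, thinning and other limits. Leaving out shared barcodes, weighting by make-up and pooling both dendritic classes were added after seeing the data.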

Additional observations from a re-analysis of the deposited data

Results flagged for a closer look

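The barcodes removed by the filters (669 in KO and 741 in WT) also held UMIs of these genes, which no comparison above uses, with over 3 UMIs in both libraries for 5 of them. The KO barcodes held 56 UMIs of Areg, 17 of Hbegf, 112 of Vegfa, 176 of Osm and 26 of Pdgfb. The WT barcodes held 32 UMIs of Areg, 9 of Hbegf, 74 of Vegfa, 80 of Osm and 11 of Pdgfb. Igf1 had 3 UMIs in the KO and 1 in the WT barcodes, and Ereg none in the KO and 1 in the WT barcodes. As levels these were 55.2 CPM in KO and 35.5 CPM in WT for Areg, 110.5 CPM in KO and 82.1 CPM in WT for Vegfa, and 174 CPM in KO and 88.8 CPM in WT for Osm.

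Areg stood in opposite directions in different classes. Its log2 ratio of KO over WT was 4.32 in CD4 T cell-like, 3.35 in plasmacytoid DC-like, 1.64 in migratory DC-like, 0.85 in macrophage-like and 0.51 in cDC2-like cells, and -3.75 in gamma-delta T cell-like cells, where the KO count was 0 and the value is set at the bound of 3 UMIs. Hbegf did so too, at 3.15 in neutrophil-like and 0.55 in cDC2-like cells and -2.02 in melanoma-like cells. These differences between classes were not tested, since each class has 1 library per genotype. In CD4 T cell-like, gamma-delta T cell-like, plasmacytoid DC-like and neutrophil-like cells, 11 or fewer cells per library held the UMIs.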

How the results depend on the processing

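Over 79 results and 10 alternatives, 668 values could be computed: 564 stayed within the counting interval of the value reported, 91 moved and 13 changed direction. No paired analysis was possible because each genotype has 1 library.

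Changes of direction. Areg in cDC2-like cells was at -0.089 without the highest doublet scores and -0.32 at Leiden resolution 2.0, where Hbegf was at -0.48. Without the 5 richest cells Vegfa was at 0.67 in CD4 T cell-like and 1.57 in cDC1-like cells, Hbegf at -0.81 in migratory DC-like cells and Pdgfb at -0.064 in the Arg1-led cluster. Vegfa in cDC1-like cells was at 1.498 with the 10% mitochondrial limit and 0.74 at resolution 0.5, where Igf1 in macrophage-like cells was at 0.15. As a mean over cells Osm in melanoma-like cells was at -3.42 and Ereg in mononuclear phagocyte-like cells at -0.12. Osm in plasmacytoid DC-like cells was at -0.74 without the highest doublet scores. Except where fewer cells or UMIs remained by construction, the cause was not tested.

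Changes of size. In mononuclear phagocyte-like cells Areg was at 1.09 without the 5 richest cells, 0.25 without cells holding markers of another lineage, 0.32 with the 10% limit, 0.85 at resolution 2.0, 0.72 at 0.5 and 0.72 clustered without the 7 genes. Vegfa there was at 0.075 as a mean over cells, 0.32 without cells of mixed markers, 0.60 at resolution 0.5 and 0.62 clustered without the 7 genes. For Osm the last 3 of these gave 0.21, 0.37 and 0.34. Areg in cDC2-like cells was at 0.997 without the 5 richest cells, 0.19 as a mean over cells, 0.36 without cells of mixed markers and 0.72 with the 10% limit. In migratory DC-like cells it was at 3.18 without the 5 richest cells, 2.198 without the highest doublet scores, 2.17 with the 10% limit, 0.65 at resolution 2.0 and 0.79 clustered without the 7 genes. In both dendritic classes pooled it was at 1.15, 0.52 (mean over cells), 1.48 (10% limit), 0.54 (resolution 2.0) and 0.55 (without the 7 genes). In regulatory T cell-like cells it was at 0.58 as a mean over cells. Of the pairs of gene and class, 11 in place of 17 were higher without cells of mixed markers.

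Depth and limits. Thinned to 2000 and 1000 UMIs per cell, the share of mononuclear phagocyte-like cells with Areg was 5.97% and 4.55% in KO and 4.37% and 3.62% in WT. For Vegfa it was 26.1% and 17.0% in KO and 24.3% and 17.8% in WT, and for Osm 59.3% and 42.5% in KO and 52.4% and 37.0% in WT. The 10 richest cells held 39.8% of Areg in KO and 64.4% in WT mononuclear phagocyte-like cells, and 61.5% in KO and 73.5% in WT cDC2-like cells. At a log2 size of 1, listed genes higher and lower numbered 4 and 3 in macrophage-like, 2 and 0 in monocyte-like and 5 and 3 in cDC2-like cells, and at 50 UMIs 3 were lower in macrophage-like cells.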
